A study of Mus musculus with 12 samples.

Results

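Red cell precursors share a set of genes for their membrane, its spectrin and actin skeleton, their surface receptors and the transcription factors that switch these genes on. Values of 30 such genes are described here in spleens of 2 BALB/c colonies, over 52 probe sets whose annotated symbol is exactly the gene's. The list held 32 genes. For Ahsp, the chaperone of free alpha globin, and Epb41, protein 4.1 of the membrane skeleton, no probe set named the gene alone, and they were not analysed here. The whole table gave 18193 genes with a probe set of their own and 45037 probe sets that are not array controls. Of the 30 genes, 19 had 1 probe set, 4 had 2, 4 had 3, 2 had 4 and Add2 had 5, and probe sets of 1 gene are repeated readings of the same transcript, not replicates.

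The mice were females of the inbred colonies BALB/cJ and BALB/cByJ, both from The Jackson Laboratory. Each of the 4 groups had 3 arrays, each of a separate animal: naïve BALB/cByJ, naïve BALB/cJ, immunized BALB/cByJ and immunized BALB/cJ. Immunization was 1 intraperitoneal dose of cartilage proteoglycan (PG, 100 μg of protein per the labels) with 2 mg of the adjuvant dimethyldioctadecyl-ammonium bromide (DDA), and spleens were taken 12 days later. Naïve mice were left untreated. The methods of the wider colony study give an age of 24 to 26 weeks and 75 μg of PG protein, and do not say whether these hold for the arrays. The RNA came from a 50 mg piece of each spleen, so the samples are mixtures of cells, and fewer erythroid cells in a piece cannot be told apart from less of an RNA in each cell.

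Every deposited value is the log2 distance of a probe set from its own median over the 12 arrays, so 0 is the median array, a value of -1 is a level 2-fold below it, and no signal level is known. The base of the logarithm was read as 2 and is not stated by the sources. The label of spleen could therefore not be checked against the absolute levels of its marker genes, and levels cannot be compared between genes. Differences are BALB/cByJ minus BALB/cJ, or immunized minus naïve, from a single limma fit over all 12 arrays. SE is the standard error of the difference. A call means an adjusted p (Benjamini-Hochberg, over all 45037 probe sets) under 0.05. With 3 arrays in a group, the number of animals limits the precision.

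The adult mouse spleen, unlike the human spleen, makes red cells throughout life, and its red pulp can expand that production under anemia or inflammation. Erythropoietin acting on its receptor keeps the precursors alive, GATA1 with its partners TAL1, LMO2 and FOG1 turns on the erythroid program, and KLF1 drives many late genes, among them those of the membrane. Precursors then stop dividing and expel their nucleus. Band 3 and the Rh complex span the membrane, and ankyrin, protein 4.2 and adducin tie them to the spectrin lattice.

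In naïve mice, spleens of BALB/cByJ mice gave higher values of these genes than those of BALB/cJ mice, across nearly all roles in the list. Limma called 34 of the 52 probe sets, all higher in BALB/cByJ, while 2.68% of all probe sets were called in that direction. In the methods' analysis of variance over the 4 groups, 0 of the 52 passed after Benjamini-Hochberg adjustment (lowest adjusted p of a member 0.132). Its pairwise step was thus not reached for any member, so the 0 it gives here and in each comparison below is 1 result. Of all probe sets, it called 67 in this comparison. The median difference of the 52 was 1.41 (range 0.16 to 2.15) on the log2 scale, beside -0.01 over all probe sets, and 40 of them differed by more than 2-fold. At least 1 probe set was called for 25 of the 30 genes, and every probe set for 18. The 5 genes without a call were Bpgm, Hba-a1, Lmo2, Mgst3 and Trim10. In 43 of the 52 probe sets the 3 BALB/cByJ arrays all lay above the 3 BALB/cJ arrays, which was so for 9.76% of all probe sets. With the probe sets of a gene averaged, limma called 26 of 30 genes as higher (not Slc4a1, Bpgm, Mgst3 and Lmo2), with 4.17% of all genes called higher and 3.37% called lower.

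The calls rested on a few animals. The median of the 30 genes was 0.22, 0.37 and 0.69 in the naïve BALB/cByJ arrays and -1.10, -1.31 and -0.24 in the naïve BALB/cJ arrays. Naïve BALB/cJ replicates 1 and 2 were thus far below the other naïve arrays, and replicate 3 lay between them and BALB/cByJ. All 30 genes were lower in replicates 1 and 2 than in replicate 3, by a median of 0.89 from their mean. In 29 of the 30, replicate 3 was still below every naïve BALB/cByJ array, by a median of 0.73 from their mean. Shares over all genes were not computed for these orders of arrays. Leaving out replicate 1 of naïve BALB/cJ left 2 of the 34 probe sets called, and leaving out its replicate 2 left 1, whereas 42 were called without its replicate 3. Calls over all probe sets fell alongside, from 1976 to 232 and 161, and were 2253 without replicate 3. Of the BALB/cByJ arrays, 3 probe sets were called without replicate 3 (265 of all), 12 without replicate 2 (1285 of all) and 37 without replicate 1 (2470 of all). Leaving out immunized BALB/cByJ replicate 2, which is not in this comparison but enters the pooled spread, gave 22 (1416 of all). The median difference stayed between 1.22 and 1.79 when any 1 naïve array was left out, and all 52 differences stayed above 0. The probe set that stayed called without each naïve array in turn was Dmtn 1438189_s_at.

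**Figure D1:**
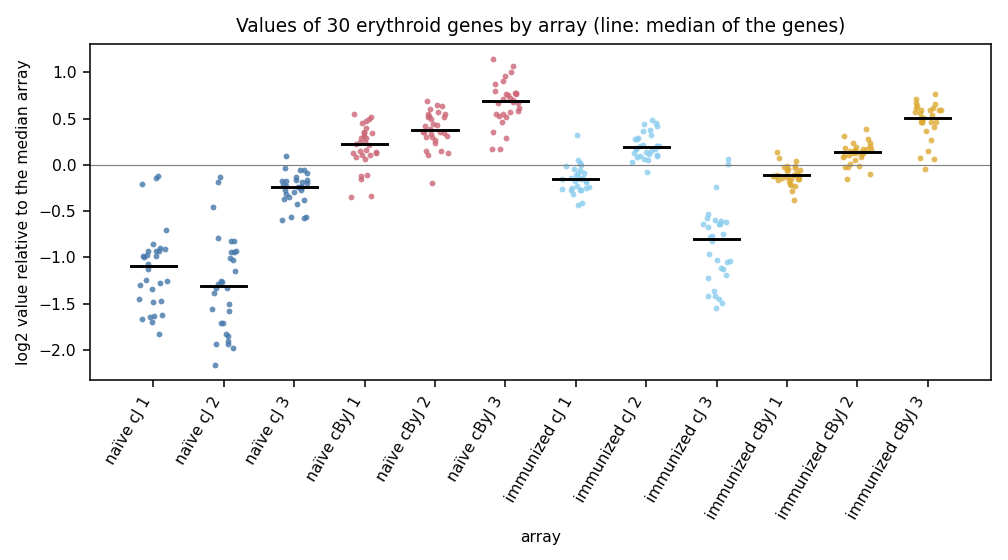
Each point is 1 of 30 erythroid genes on 1 of 12 arrays, as the log2 value relative to the median array, and each line is the median of the genes. Naïve BALB/cJ (cJ) replicates 1 and 2 and immunized BALB/cJ replicate 3 have the low medians of -1.10, -1.31 and -0.80, and naïve BALB/cByJ (cByJ) replicate 3 has the highest, 0.69.

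The same animals were at the ends for nearly every gene. Of 30 genes, 22 had their lowest value of all 12 arrays in naïve BALB/cJ replicate 2, 6 in naïve BALB/cJ replicate 1 and 2 in immunized BALB/cJ replicate 3. At the other end, 26 were highest in naïve BALB/cByJ replicate 3, 3 in immunized BALB/cByJ replicate 3 and 1 in naïve BALB/cByJ replicate 1. The like counts over all genes were not made. Values below -1 occurred in 3 arrays alone: for 16 genes in naïve BALB/cJ replicate 1, 21 in its replicate 2 and 13 in immunized BALB/cJ replicate 3. The range over the 12 arrays ran from 0.41 to 3.24 between genes, with a median of 2.04. Within groups, the median SD of the genes was 0.53 in naïve and 0.55 in immunized BALB/cJ (n = 3), and 0.28 in naïve and 0.33 in immunized BALB/cByJ (n = 3).

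**Figure D2:**
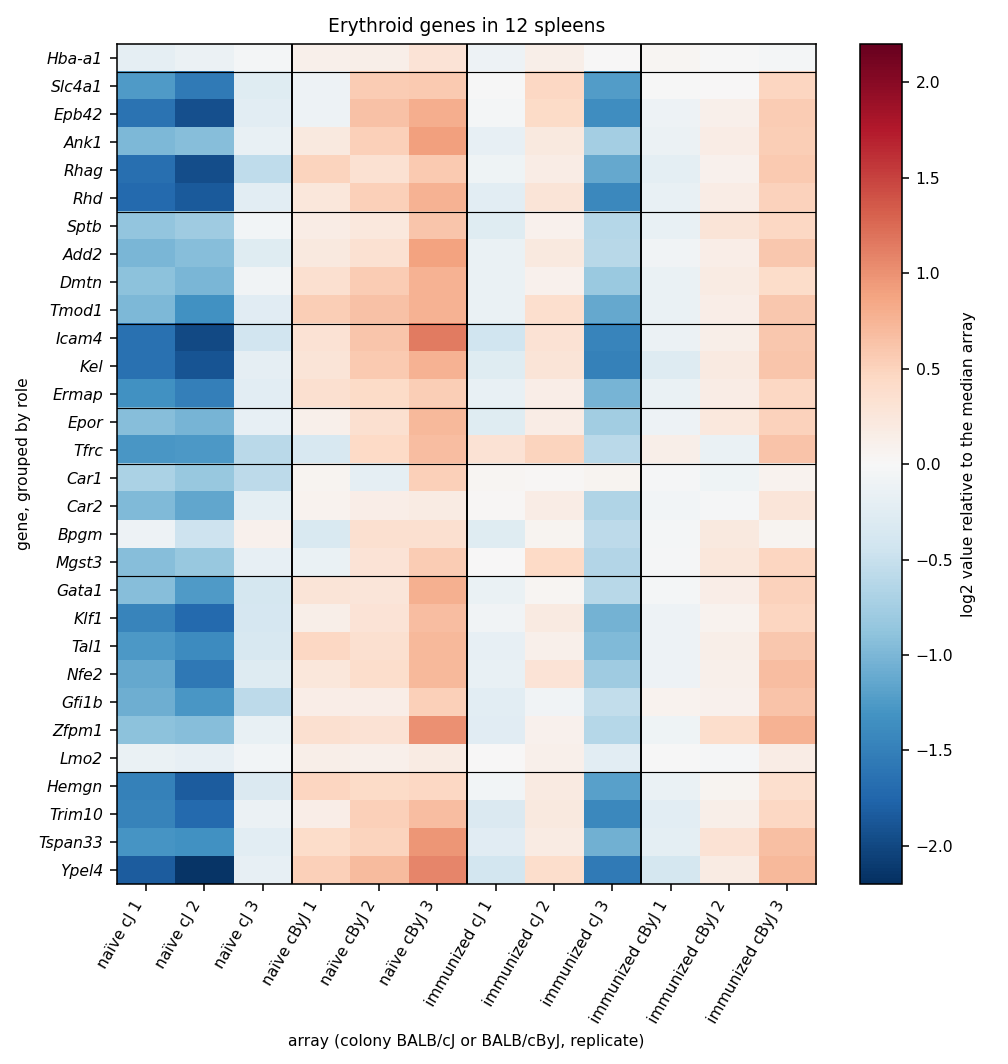
Colors give the log2 value of each of 30 genes (rows, mean of the gene's probe sets, in blocks by role) on each array (columns), relative to the median array. The blue columns are naïve BALB/cJ replicates 1 and 2 and immunized BALB/cJ replicate 3, and the pale rows Hba-a1, Bpgm and Lmo2 hold the smallest ranges over the arrays.

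Among the proteins that span or anchor the membrane, 7 of 11 probe sets were called in naïve mice, with a median difference of 1.62. Rhag encodes the Rh-associated glycoprotein, the core of the Rh complex. Naïve BALB/cByJ arrays were at 0.49, 0.34 and 0.57 and naïve BALB/cJ arrays at -1.67, -1.94 and -0.56, with -0.21, 0.09 and 0.57 in immunized BALB/cByJ and -0.09, 0.17 and -1.13 in immunized BALB/cJ. The naïve colonies did not overlap, and the immunized colonies did. The naïve difference was 1.86 (SE 0.359, adjusted p = 0.0158 by limma). Rhd, the Rh blood group protein, differed by 1.77 (adjusted p = 0.0402).

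Slc4a1 encodes band 3, the chloride and bicarbonate exchanger. Its probe set 1416464_at was at 0.29, 0.38 and 0.43 in naïve BALB/cByJ, at -1.30, -1.55 and -0.19 in naïve BALB/cJ, at -0.13, 0.13 and 0.46 in immunized BALB/cByJ and at -0.14, 0.22 and -1.20 in immunized BALB/cJ. All naïve BALB/cByJ values were above all naïve BALB/cJ values, by 1.38 in the mean (SE 0.358, adjusted p = 0.049 by limma, just inside the threshold). With its 3 probe sets averaged, Slc4a1 differed by 1.37 and was not called (adjusted p = 0.0585 over genes). Another probe set of the gene, 1431743_a_at, differed by 1.51 but was not called (95% confidence interval 0.17 to 2.86, adjusted p = 0.205). Naïve BALB/cByJ replicate 1 was at -1.04 there and replicates 2 and 3 both at 1.04.

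Epb42, protein 4.2, which binds band 3 to ankyrin, showed the same split between probe sets. The difference was 1.72 at 1417337_at (adjusted p = 0.0471) and 1.70 at 1417338_at (adjusted p = 0.0858 by limma), and naïve BALB/cByJ replicate 1 was at 0.15 in the former and -0.36 in the latter. Ank1, ankyrin, was called at 1425677_a_at (1.74, adjusted p = 0.0298) and 1419421_at (1.62, adjusted p = 0.0179). Its probe set 1443291_at ranged only from -0.22 to 0.13 over the 12 arrays and differed by 0.16 (95% confidence interval -0.02 to 0.34). The part of Ank1 transcripts that each probe set reads was not examined here.

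In the spectrin and actin skeleton, 7 of 11 probe sets were called, with a median difference of 1.30. Add2, beta-adducin, which caps actin filaments and joins them to spectrin, was measured 5 times, with differences from 0.70 at 1450442_at (adjusted p = 0.0722) to 1.93 at 1435287_at (SE 0.362, adjusted p = 0.0142). The latter was at 0.45, 0.38 and 1.05 in naïve BALB/cByJ, -1.63, -1.79 and -0.51 in naïve BALB/cJ, -0.14, 0.20 and 0.81 in immunized BALB/cByJ and -0.14, 0.14 and -0.98 in immunized BALB/cJ. Its naïve groups were separate, and immunized BALB/cJ replicate 3 was again the lowest of the immunized arrays.

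Dmtn, dematin, which bundles actin, held the smallest adjusted p of the list. Probe set 1438189_s_at was at 0.67, 0.83 and 1.06 in naïve BALB/cByJ and -0.66, -0.66 and -0.05 in naïve BALB/cJ, and at -0.03, 0.25 and 0.33 in immunized BALB/cByJ and -0.11, 0.03 and -0.60 in immunized BALB/cJ. The 3 naïve BALB/cByJ values were the highest of the 12. The difference of 1.31 had an SE of 0.191 (adjusted p = 0.00687 by limma). Its other probe sets differed by 1.82 at 1460223_a_at (adjusted p = 0.0452) and 0.52 at 1445439_at (adjusted p = 0.0637). Tmod1, tropomodulin, which caps the other end of the actin filaments, differed by 1.51 (adjusted p = 0.0273). Sptb, beta-spectrin, differed by 1.64 at 1450556_at (adjusted p = 0.0366) and by 0.18 at 1455226_at (95% confidence interval -0.13 to 0.49), so the probe sets of this gene gave unlike readings.

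Each of the 3 surface proteins with blood group or adhesion roles was called, with a median difference of 1.78. Icam4, the Landsteiner-Wiener adhesion protein through which erythroblasts bind integrins, was at 0.31, 0.60 and 1.14 in naïve BALB/cByJ, -1.65, -1.98 and -0.43 in naïve BALB/cJ, -0.12, 0.12 and 0.60 in immunized BALB/cByJ and -0.43, 0.32 and -1.45 in immunized BALB/cJ. The naïve colonies were separate and the immunized colonies overlapped. Its naïve difference was 2.04 (SE 0.438, adjusted p = 0.0241 by limma). Kel, the Kell blood group endopeptidase, differed by 1.78 (adjusted p = 0.0473), and Ermap, which carries the Scianna blood group in humans, by 1.47 (adjusted p = 0.0259).

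**Figure D3:**
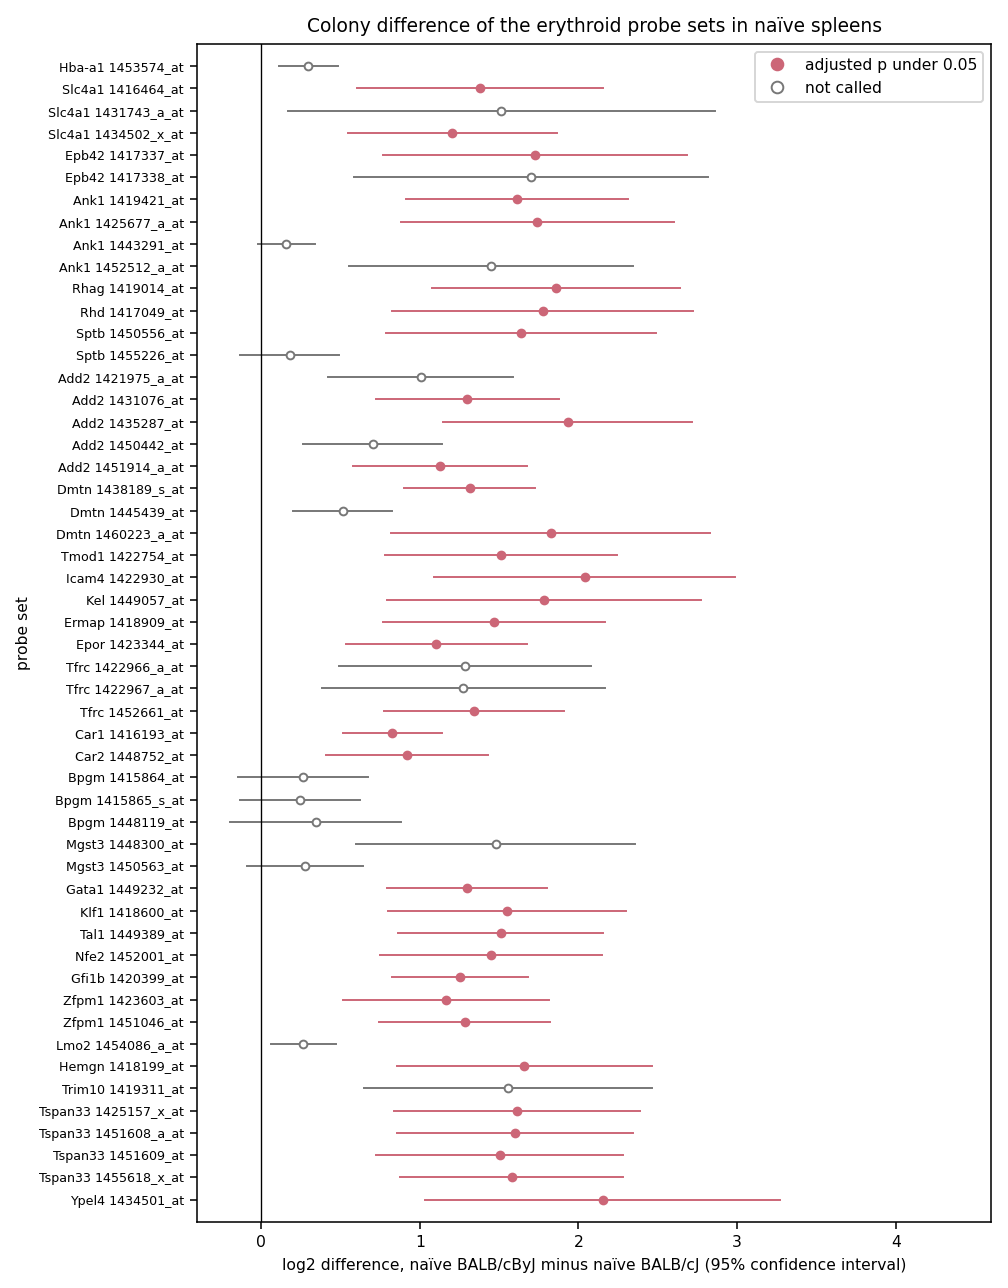
Points give the log2 difference between naïve BALB/cByJ and naïve BALB/cJ for the 52 probe sets, with bars for the 95% confidence interval from limma, n = 3 arrays in each group. Filled red points are the 34 called probe sets, and all 52 points lie above 0, between 0.16 and 2.15.

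Of the receptors, Epor, the erythropoietin receptor, was at 0.11, 0.36 and 0.71 in naïve BALB/cByJ, -0.93, -1.03 and -0.19 in naïve BALB/cJ, -0.11, 0.24 and 0.51 in immunized BALB/cByJ and -0.27, 0.16 and -0.77 in immunized BALB/cJ. Its lowest naïve BALB/cByJ value was 0.11 and its highest naïve BALB/cJ value -0.19. The difference was 1.11 (SE 0.262, adjusted p = 0.0355 by limma).

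Tfrc, the transferrin receptor that brings iron into erythroblasts and other dividing cells, gave readings that parted most in 1 animal. The 3 tested probe sets spread over 1.28 in naïve BALB/cByJ replicate 1, and next over 0.71 in immunized BALB/cJ replicate 1. At 1452661_at the naïve BALB/cByJ arrays were at 0.37, 0.22 and 0.63 and the naïve BALB/cJ arrays at -1.19, -1.23 and -0.39. That probe set was called, with a difference of 1.34 (SE 0.261, adjusted p = 0.0161 by limma). Probe sets 1422966_a_at and 1422967_a_at differed by 1.29 (adjusted p = 0.0692) and 1.28 (adjusted p = 0.106) and were not called. In naïve BALB/cByJ replicate 1 they were at -0.51 and -0.90, below its other 2 group members, which lay between 0.53 and 0.72.

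The array carries 3 further control probe sets for Tfrc, which read the 3′ end, the middle and the 5′ end of the transcript and were not tested. In naïve BALB/cByJ replicate 1 they were at -0.37, -0.57 and -1.17 in that order, so the 3′ value exceeded the 5′ value by 0.80. Each value is relative to the probe set's own median, so this is not a difference of signals. In the other 11 arrays the 3′ minus 5′ value lay between -0.53 and 0.26. The same measure was also highest in naïve BALB/cByJ replicate 1 for the control transcripts Actb (0.16) and Gapdh (0.30). Genes of the exocrine pancreas were high in that array as well, with a median of 2.10 over 15 genes. Without it, 9 further member probe sets were called, among them both of these Tfrc probe sets, Slc4a1 1431743_a_at, Epb42 1417338_at and Ank1 1452512_a_at, while 28 of the 34 stayed called. The part of transcript integrity or of pancreatic RNA in these readings was not tested.

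**Figure D4:**
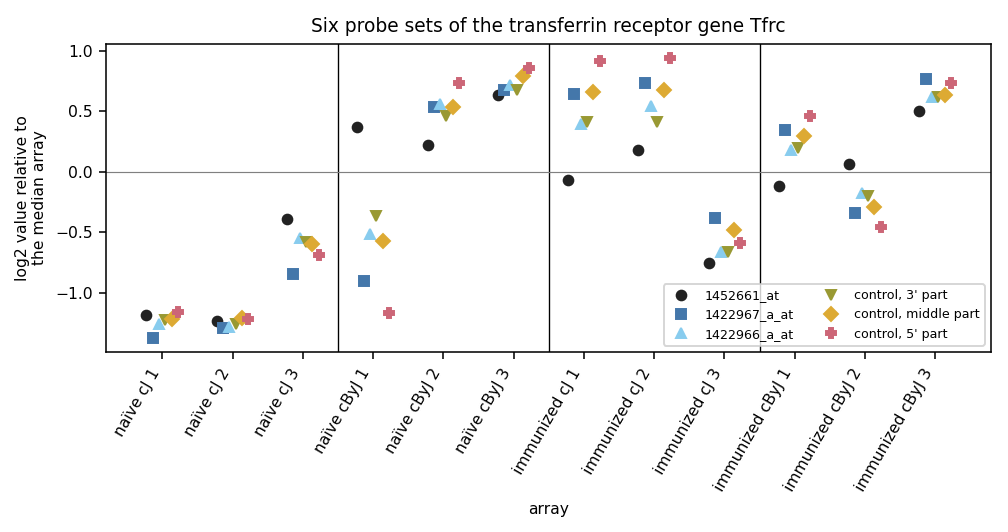
The 6 readings of Tfrc are shown by array, as log2 values relative to the median array: 3 tested probe sets and the 3 control probe sets for the 3′, middle and 5′ parts of the transcript. In naïve BALB/cByJ replicate 1 they spread from 0.37 (1452661_at) to -1.17 (5′ control), and in naïve BALB/cJ replicates 1 and 2 all are between -1.38 and -1.16.

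Of the 7 probe sets for enzymes, 2 were called, with a median of 0.34 over probe sets, 3 of which read Bpgm, and of 0.85 over the 4 genes. Car1 and Car2 encode carbonic anhydrases, which interconvert carbon dioxide and bicarbonate. Car1 was at 0.06, -0.20 and 0.52 in naïve BALB/cByJ, -0.70, -0.83 and -0.57 in naïve BALB/cJ, -0.03, -0.10 and 0.08 in immunized BALB/cByJ and 0.05, 0.03 and 0.06 in immunized BALB/cJ. All 3 naïve BALB/cJ arrays were low here, and immunized BALB/cJ replicate 3 was not. Its naïve difference was 0.83 (SE 0.143, adjusted p = 0.0111 by limma). Car2 had the more usual profile, at 0.09, 0.15 and 0.18 in naïve BALB/cByJ, -0.98, -1.15 and -0.22 in naïve BALB/cJ, -0.05, -0.02 and 0.27 in immunized BALB/cByJ and 0.02, 0.17 and -0.67 in immunized BALB/cJ. The naïve arrays did not overlap, and the difference was 0.92 (SE 0.234, adjusted p = 0.0461).

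Bpgm makes 2,3-bisphosphoglycerate, which lowers the oxygen affinity of hemoglobin. Its 3 probe sets differed by 0.25 to 0.34 in naïve mice, with adjusted p values from 0.502 to 0.513 (limma) and confidence intervals that together ran from -0.19 to 0.88. Averaged over them, naïve BALB/cByJ was at -0.33, 0.35 and 0.36 and naïve BALB/cJ at -0.12, -0.45 and 0.09, so the colonies overlapped. Mgst3, a microsomal glutathione transferase, differed by 1.48 at 1448300_at (95% confidence interval 0.60 to 2.36, adjusted p = 0.0602) and 0.28 at 1450563_at (-0.09 to 0.64), and neither was called.

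Among the transcription factors, 7 of 8 probe sets were called, with a median difference of 1.29. Gata1, the zinc finger factor that erythroid and megakaryocyte development requires, was at 0.29, 0.27 and 0.77 in naïve BALB/cByJ, -0.93, -1.25 and -0.38 in naïve BALB/cJ, -0.05, 0.14 and 0.51 in immunized BALB/cByJ and -0.15, 0.05 and -0.62 in immunized BALB/cJ. The naïve colonies did not overlap, the nearest values being 0.27 and -0.38. The difference was 1.30 (SE 0.233, adjusted p = 0.0125 by limma).

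Klf1, the CACCC-box factor of late erythroid genes, was at 0.13, 0.30 and 0.67 in naïve BALB/cByJ, -1.46, -1.71 and -0.37 in naïve BALB/cJ, -0.11, 0.08 and 0.47 in immunized BALB/cByJ and -0.08, 0.21 and -1.04 in immunized BALB/cJ. The low arrays were those that were low for the membrane genes. Its naïve difference was 1.55 (SE 0.346, adjusted p = 0.0276 by limma). Gfi1b, a repressor needed for erythroid and megakaryocyte maturation, differed by 1.25 (SE 0.198, adjusted p = 0.0083), from 0.15, 0.15 and 0.53 in naïve BALB/cByJ to -1.07, -1.29 and -0.58 in naïve BALB/cJ.

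The partners of GATA1 were mostly called. Tal1, which pairs with GATA1 at erythroid enhancers, differed by 1.51 (adjusted p = 0.0173), and Zfpm1, the cofactor FOG1, by 1.28 at 1451046_at (adjusted p = 0.0158) and 1.16 at 1423603_at (adjusted p = 0.0483). Nfe2, the factor NF-E2 that acts on globin genes and in platelet formation, differed by 1.45 (adjusted p = 0.027 by limma). Lmo2, the bridge between TAL1 and GATA1, was at 0.13, 0.11 and 0.18 in naïve BALB/cByJ and -0.15, -0.19 and -0.05 in naïve BALB/cJ. Those groups were separate too, but the difference was only 0.27 (95% confidence interval 0.06 to 0.47) and it was not called (adjusted p = 0.136).

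The remaining erythroid genes had a median difference of 1.60, with 6 of 7 probe sets called. Ypel4 had the largest difference of the 52 probe sets. Naïve BALB/cByJ values were 0.52, 0.69 and 1.07, naïve BALB/cJ values -1.83, -2.16 and -0.18, and the immunized arrays were at -0.38, 0.18 and 0.72 in immunized BALB/cByJ and -0.41, 0.38 and -1.55 in immunized BALB/cJ. Naïve BALB/cJ replicate 3 lay well above its 2 group members but below all naïve BALB/cByJ arrays, and the difference of 2.15 had an SE of 0.515 (adjusted p = 0.0365 by limma). Hemgn, the nuclear protein hemogen of blood precursors, differed by 1.66 (adjusted p = 0.0276). Tspan33, a tetraspanin needed for normal red cell formation in mice, differed by 1.5 to 1.61 over 4 probe sets, all called. Trim10, a RING-finger protein needed for terminal erythroid differentiation in mouse cells, differed by 1.56 and was not called over probe sets (95% confidence interval 0.65 to 2.46, adjusted p = 0.0564), but was called over genes (adjusted p = 0.0445).

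Hba-a1, an adult alpha globin gene, was the only member measured for the globin chains. Its own probe set was at 0.11, 0.13 and 0.29 in naïve BALB/cByJ, -0.20, -0.13 and -0.03 in naïve BALB/cJ, 0.04, -0.01 and -0.05 in immunized BALB/cByJ and -0.11, 0.13 and 0.01 in immunized BALB/cJ. The naïve groups were separate by a small margin, and the range over all arrays was 0.50, with only that of Lmo2, 0.41, smaller. The difference was 0.30 (95% confidence interval 0.11 to 0.48, adjusted p = 0.0698 by limma over probe sets and 0.039 over genes). The other 3 probe sets naming Hba-a1 also name the near-identical Hba-a2, with ranges of 0.18 to 0.29 over the 12 arrays and naïve differences of -0.07, -0.05 and -0.02. Of 5 other globin genes with a probe set of their own, 1 was called higher, Hba-a2 (0.45, adjusted p = 0.0421 over genes), and 0 lower. Whether the globin probe sets were near the top of the measurable range cannot be seen from values without a signal level.

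The 250 bases before the RefSeq start sites of the listed genes (assembly GRCm38.p6) were searched on both strands. The sites sought were the 6-letter sites of GATA factors, AGATAA and TGATAA. Of 24 listed genes with a window, among them the unmeasured Epb41, 13 held at least 1 (54.2%), against 13.8% of 14453 genes on the array with a window. The genes were listed by name as erythroid, so this share describes the list whatever the arrays showed. Counted by window, the share was 46.4% of the 28 member windows. It was 11.8% of 18110 windows of genes on the array and 16.6% of all 32851 windows. The 13 genes were Epb42, Epor, Ermap, Gfi1b, Hba-a1, Hemgn, Icam4, Kel, Klf1, Rhag, Rhd, Tal1 and Trim10. The 14 sites lay 8 to 221 bases before the start, with a median of 56.5, and 8 genes had 1 within 100 bases. Genes with and without such letters both occurred among the called members, for example Klf1 with and Gata1 without.

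The looser CACCC-box form CCNCNCCC occurred in 64.3% of the 28 member windows, 58.8% of the 18110 windows of genes on the array and 45.9% of all windows. The form CCACACCC, which is contained in it, occurred in 0 of 28, 3.5% and 3.2%, in that order. The NF-E2 core TGAGTCA occurred in 10.7%, 4.0% and 4.5%, and the E-box CAGCTG in 14.3%, 12.8% and 13%. These are matches of letters and not measured binding. The windows of Icam4 and Klf1, 1 membrane and 1 transcription factor gene with large differences, and 30 bases around the site of Rhag are shown to place the GATA letters (capitals, TTATCT and TTATCA being AGATAA and TGATAA on the opposite strand, and in Icam4 also the 2 CACCC-box forms on that strand). The sites lie 38, 75 and 26 bases before the start site used for Icam4 (chr9:21029182-21029431, plus strand), Klf1 (chr8:84901732-84901981, plus strand) and Rhag (chr17:40811106-40811135, plus strand). For Rhag, the last 50 bases of the window, with the site, lie inside the annotated gene, which begins at chr17:40811099.
Icam4: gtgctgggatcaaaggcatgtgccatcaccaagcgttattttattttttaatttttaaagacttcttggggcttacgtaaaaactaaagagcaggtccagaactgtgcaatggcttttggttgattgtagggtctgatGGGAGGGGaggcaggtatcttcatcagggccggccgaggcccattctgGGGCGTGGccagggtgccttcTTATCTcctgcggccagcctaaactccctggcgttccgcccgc
Klf1: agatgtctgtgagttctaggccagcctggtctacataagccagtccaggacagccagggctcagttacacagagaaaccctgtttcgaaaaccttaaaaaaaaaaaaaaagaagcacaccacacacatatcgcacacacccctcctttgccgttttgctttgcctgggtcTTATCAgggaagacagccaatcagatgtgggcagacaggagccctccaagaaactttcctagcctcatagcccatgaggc
Rhag: agtcctctgctcTTATCAacactatacagc

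Among immunized mice, the colonies were not told apart by these genes. Limma called 0 of 52 probe sets (3 at an unadjusted p under 0.05, and 0 by the methods' analysis of variance), and 0.12% of all probe sets were called. The lowest adjusted p was 0.565. The differences were above 0 in 49 of 52, with a median of 0.45 (range -0.08 to 0.85). Intervals were wide: 0.50 (95% confidence interval -0.28 to 1.28) for Rhag, 0.72 (-0.23 to 1.67) for Icam4 and 0.44 (-0.07 to 0.94) for Gata1, so a difference as large as 1 was within the interval of Rhag and Icam4. Car1 was at -0.07 (-0.38 to 0.24), and its interval did not reach the naïve difference of 0.83.

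The medians of the 30 genes were -0.11, 0.14 and 0.51 in immunized BALB/cByJ and -0.16, 0.19 and -0.80 in immunized BALB/cJ. Immunized BALB/cJ replicate 3 was the lowest of the 6 immunized arrays for 28 genes, and immunized BALB/cByJ replicate 3 was the highest for 28. How often these arrays were at the ends over all genes was not computed. Without the former, the median difference of the 52 probe sets was 0.16, with 41 above 0. The immunized sample numbers form an early run (2 BALB/cByJ and 1 BALB/cJ) and a late run (1 and 2), which the labels do not call batches. Within the early run the median difference of the 30 genes was 0.18, with 26 above 0, and within the late run 0.87, with 29 above 0. The naïve samples have a run of numbers of their own, so that naïve and immunized cannot be told apart from it. Within that run BALB/cByJ has the numbers 10 to 12 and BALB/cJ 13 to 15. The naïve colony difference therefore cannot be told apart from the order of the numbers either. Genes of the heat shock response were higher in immunized BALB/cJ replicate 3 (median 0.74 of 10 genes) than in any other array, and their part in the array's low values was not tested.

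Immunization itself gave no call for a member in either colony. In BALB/cByJ, 0 of 52 probe sets were called (1 at an unadjusted p under 0.05, and 0 by the methods' analysis of variance), beside 0.0511% of all probe sets. The median change was -0.25 (range -0.67 to 0.16), and 3 of 52 were above 0. Icam4 was at -0.49 (95% confidence interval -1.44 to 0.46), Klf1 at -0.22 (-0.97 to 0.53) and Car1 at -0.15 (-0.46 to 0.16).

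In BALB/cJ the values ran the other way without passing the test. Limma called 0 of 52 (15 at an unadjusted p under 0.05, and 0 by the methods' analysis of variance), and 0% of all probe sets were called. The median change was 0.61 (range -0.16 to 1.51), 49 of 52 were above 0, and the lowest adjusted p, 0.323, was that of Car1. All 3 immunized BALB/cJ values of Car1 (0.03 to 0.06) lay above the naïve ones (-0.83 to -0.57), by 0.75 in the mean (95% confidence interval 0.44 to 1.06). Rhag was at 1.04 (0.26 to 1.82), Klf1 at 0.87 (0.12 to 1.63) and Gata1 at 0.62 (0.11 to 1.12), intervals that hold for a single gene and not over the 45037 tests. When any 1 array was left out, the median stayed between 0.34 and 0.93, with 48 to 51 of 52 above 0. Leaving out together the 4 arrays with high melanocyte genes (naïve BALB/cJ replicates 1 and 2, immunized BALB/cJ replicate 1 and immunized BALB/cByJ replicate 2) gave a median of -0.10, with 18 of 52 above 0, but this set 1 naïve BALB/cJ array against 2 immunized ones.

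The difference between the responses of the colonies was tested directly. It was called for 0 of 52 probe sets (18 at an unadjusted p under 0.05) and 0% of all probe sets, with a median of -0.93 (range -1.45 to 0.08) and a lowest adjusted p of 0.438. The values were -0.89 (95% confidence interval -1.33 to -0.46) for Car1, -1.36 (-2.46 to -0.25) for Rhag and -0.86 (-1.57 to -0.15) for Gata1. These comparisons share arrays, so that the low naïve BALB/cJ arrays enter the naïve colony difference, the immunization change in BALB/cJ and the difference of responses alike. A single F-test over the 4 groups called 6 of 52 probe sets (44 at an unadjusted p under 0.05), beside 1.77% of all: Dmtn 1438189_s_at, Gfi1b, Car1, Gata1, Add2 1435287_at and Zfpm1 1451046_at.

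Genes of other erythroid steps were read beside the members, each as the mean of its probe sets, in naïve mice. Of 19 genes of heme synthesis and iron supply, 13 were called higher and 0 lower in BALB/cByJ, with a median of 0.77. Among them were Cpox, which oxidizes coproporphyrinogen (1.10, adjusted p = 0.00634 by limma), Tfr2, a partner of the erythropoietin receptor (0.95, adjusted p = 0.00877), Abcb6, which carries the Langereis blood group in humans (1.18, adjusted p = 0.0119), and Steap3, the ferrireductase of erythroblast endosomes (1.03, adjusted p = 0.0125). The medians of this list by array were 0.15, 0.20 and 0.42 in naïve BALB/cByJ and -0.62, -0.68 and -0.13 in naïve BALB/cJ, with -0.49 in immunized BALB/cJ replicate 3, the array order of the members.

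Of 25 other genes of the red cell membrane, 10 were called higher, among them Gypc, glycophorin C (1.07), and Kcnn4, the Gardos potassium channel (0.91), and 1 was lower, Sptan1, the spectrin of other cells (-0.31, adjusted p = 0.0257, named after its value was seen). The median of that list was 0.23. Of 21 other erythroid transcription factors and regulators, 4 were higher and 0 lower, namely Sox6 (1.71), E2f2 (1.26), Foxo3 (0.36) and Klf3 (0.35). Of 18 genes of erythropoietin signalling other than the receptor, Pim1 (0.43), a kinase, and Ptpn11 (0.20), the phosphatase SHP2, were higher, and Kit (-0.39), the stem cell factor receptor, and Ptpn6 (-0.26), the phosphatase SHP1, were lower. The list's median was -0.14, with 11 genes at an unadjusted p under 0.05 by limma, beside 1.11 for the receptor.

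All 34 genes of a cell division list were called higher in naïve BALB/cByJ, with a median of 0.95, from 0.37 (Cdt1, which licenses DNA replication) to 1.82 (Ccne2, a cyclin of the start of DNA synthesis). Their medians by array were 0.23, 0.23 and 0.50 in naïve BALB/cByJ, -0.80, -0.81 and -0.35 in naïve BALB/cJ, -0.01, 0.14 and 0.44 in immunized BALB/cByJ and -0.08, 0.04 and -0.54 in immunized BALB/cJ. The same arrays were low as for the members. Dividing cells of any lineage express these genes, and how much of them belongs to erythroid precursors was not tested.

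**Figure D5:**
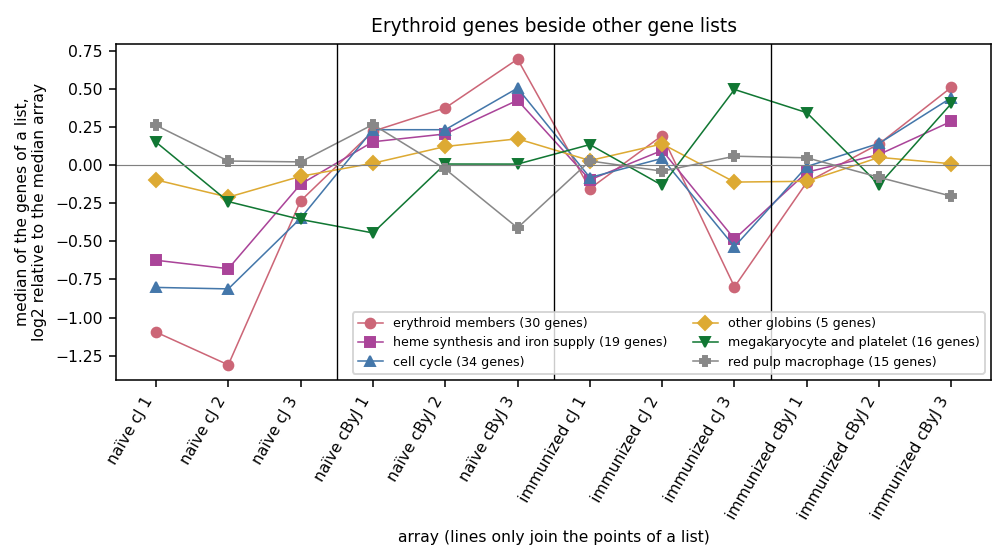
Each line is the median log2 value, relative to the median array, of 1 gene list on the 12 arrays. The members, the 19 heme and iron genes and the 34 cell division genes are low together in naïve BALB/cJ replicates 1 and 2 (-1.31 to -0.62), the 16 megakaryocyte and 15 red pulp macrophage genes lie between -0.45 and 0.50, and the 5 other globin genes between -0.21 and 0.17.

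Marker genes of neighboring cell types were read in the same way. Limma called 0 of 16 megakaryocyte genes in naïve mice (0 at an unadjusted p under 0.05), with a median of -0.01, and 0 of 15 genes of red pulp macrophages (3 at an unadjusted p under 0.05), with a median of -0.20. In naïve BALB/cJ replicates 1 and 2, where the members were lowest, the megakaryocyte medians were 0.15 and -0.24 and the macrophage medians 0.26 and 0.03. Melanocyte genes were high in these same arrays (medians of 1.13 and 1.40 over 9 genes, and -0.00 in replicate 3), with Dct, a melanin enzyme, at 6.29, 6.26 and 2.27. They were high without low members in immunized BALB/cJ replicate 1 (median 0.90, Dct 5.69, members -0.16), and not high in immunized BALB/cJ replicate 3 (Dct -0.08, members -0.80). With those 3 arrays and immunized BALB/cByJ replicate 2 (Dct 4.72) left out, the median naïve difference was 0.74 and 0 of 52 probe sets were called (5 at an unadjusted p under 0.05), where 1 naïve BALB/cJ array was left and was assumed to vary like the other groups. The part of melanocyte RNA in the members' difference was not tested further.

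Of all 18193 genes, those with the profile nearest to the mean of the 30 members over the 12 arrays were found by the root mean square distance in log2 units, with every gene centered on its mean. They were Urod (0.0498), the heme enzyme uroporphyrinogen decarboxylase, Sh3yl1 (0.0666), Ccna2 (0.0758), cyclin A2, Kif18b (0.082), a mitotic kinesin, Pdzk1ip1 (0.0838), Prc1 (0.0902), which bundles microtubules in dividing cells, Ubac1 (0.0924), Cdk1 (0.0964), the mitotic kinase, Dhrs11 (0.0967) and Gch1 (0.0969), an enzyme of tetrahydrobiopterin synthesis. The nearest member was Ermap, at 0.106 and rank 15, and 8 members were among the 40 nearest genes. The farthest members were Hba-a1 (0.522), Lmo2 (0.487), Bpgm (0.449), Ypel4 (0.427) and Car1 (0.412), where the profile itself had a root mean square of 0.61. Ypel4 varied more over the arrays than the mean, and Hba-a1, Lmo2 and Bpgm varied less. Car1 followed another order of arrays, and in part so did Hba-a1 and Bpgm.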

How the data were processed

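Spleen RNA of 12 mice was hybridized to Affymetrix whole-genome mouse expression arrays, 1 array per animal. The deposited log2 values were made by the authors with RMA (background correction, quantile normalization, median polish; version not given in the sources used here) in GeneSpring GX, and each probe set was centered on its median over the 12 arrays: these medians were within 5e-07 of 0. Signal levels, and so a filter on dim probe sets, were not available from such values, and centering leaves differences between arrays unchanged. Of 45101 probe sets, 64 array controls were left out and 45037 tested. The annotation names 1 gene for 34945 probe sets, several for 932 and none for 9160. The table held 0 columns of other samples.

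Groups and array numbers came from the labels. A model with 1 mean per group was fitted to all 12 arrays (limma 3.58.1, R 4.3.3, moderated test, two-sided, Benjamini-Hochberg), with 4 pairwise comparisons, the difference of responses and an F-test over the groups. Gene values are means of the probe sets naming only that gene. The fit was tested on simulated data with independent noise for each probe set. Shifts shared by many genes within an animal were not simulated. No 2 arrays were identical. Promoter windows are RefSeq sequences of GRCm38.p6, searched with Python 3.11.15. Figures used matplotlib 3.10.9.

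Members, gene lists, motifs and tests were chosen with earlier results of these data known. All members were named; for genes with over 2 probe sets those with the highest and lowest naïve difference were described, from other lists up to 4 genes with the smallest p, and the 10 genes nearest in profile. Promoters were those of members with the largest difference within their role, where the window lay outside the annotated gene. Rhag's site was added, although it lay inside the annotated gene. Alternatives were the methods' analysis of variance, other scalings, a robust variance prior, array weights, compared groups only, blocks for the array number or run, other probe set choices, a fold threshold of 1.2 and leaving out arrays.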

Additional observations from a re-analysis of the deposited data

How the results depend on the processing

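The naïve colony difference of each member kept its sign under every alternative run. Only the other scalings, array weights and leaving out naïve arrays could change that difference. The remaining alternatives leave it as it is. The count of calls depended on the spread. From 34 of 52 probe sets, it became 0 under the methods' analysis of variance with Benjamini-Hochberg adjustment (67 of all probe sets called, against 1976 by limma), 1 in a test against a 1.2-fold difference (83 of all), 0 without the 4 arrays high in pigment cell genes (15 of all), and 1 to 42 when single arrays were left out, with 1 without naïve BALB/cJ replicate 2 and 42 without naïve BALB/cJ replicate 3. It was 28 after quantile normalization and 34 after subtracting array medians, 24 with a robust variance prior and 33 with only the naïve arrays. The run of sample numbers as a block gave 28, but that block is the same for all naïve arrays and cannot adjust their difference. Without probe sets that may read several genes or transcripts, the count was 26 of 37. It was 45 without the 4 arrays high in pancreatic or stress (heat shock) genes. Array weights gave 49 (5950 of all called), where naïve BALB/cJ replicate 2 had the highest weight, 4.24, and naïve BALB/cByJ replicate 1 the lowest, 0.294. Of 1233 values of single members under alternatives, 286 lost their call, 55 gained one and 0 changed sign. Those values include the alternatives that leave the difference as it is.

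The change on immunization in BALB/cJ went from 0 calls to 3 with array weights (651 of all probe sets) and to 1 without the 4 arrays high in pancreatic or stress genes (103 of all), against 0 of all in the fit reported. The F-test over the groups went from 6 calls (796 of all) to 0 under the methods' analysis of variance (74), 10 after quantile normalization (965), 44 with array weights (4865), 3 with a replicate block (678), 3 with the run as a block (697), 0 without the 4 arrays high in pigment cell genes (29), 11 without those high in pancreatic or stress genes (1181), and 0 to 32 when single arrays were left out (111 to 1166). The cause of these changes was not tested, beyond the fewer arrays that some leave.

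Replicate numbers were not treated as pairs. Of 18 correlations between same-numbered arrays of different groups, 9 were over 0.1 (-0.29 to 0.37). Differently numbered arrays were not correlated for comparison, so these values cannot decide whether the numbers mark pairs. With the number as a replicate block, 28 member probe sets were called in naïve mice, 27 of them shared with the fit without it. With 3 arrays per group and a median SE of 0.32 for a log2 difference, small differences could not be seen, and the values give no signal over background.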

Other observations

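Lists of other spleen cells were read at the gene level in naïve mice, as BALB/cByJ minus BALB/cJ. Of 13 B cell genes, 0 were called higher by limma and 2 lower (10 at an unadjusted p under 0.05), with a median of -0.27. Those called were Fcer2a, the low-affinity IgE receptor (-0.45), and Fcmr, the IgM receptor (-0.32). Of 11 T cell genes, 0 were called (2 at an unadjusted p under 0.05), with a median of -0.10. Of 12 neutrophil genes, 0 were called (6 at an unadjusted p under 0.05), with a median of -0.50. By array the neutrophil medians were -0.55, -0.78 and -1.0 in naïve BALB/cByJ, 0.17, -0.50 and -0.30 in naïve BALB/cJ, -0.11, 0.48 and 0.95 in immunized BALB/cByJ and 0.41, 0.86 and 0.60 in immunized BALB/cJ, so the array with the highest member median, naïve BALB/cByJ replicate 3, had the lowest neutrophil median. Of 13 genes of stem and progenitor cells, Hlf was called higher (1.04) and Kit lower (-0.39), with a median of -0.38 and 6 at an unadjusted p under 0.05.

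Each of the lists for tissues beside the spleen was high in few arrays. The exocrine pancreas list had a median of 2.10 in naïve BALB/cByJ replicate 1 and of -0.15 to 0.26 elsewhere. Of its 15 genes, 1 was called by limma, Prss2 (0.89), and 13 were at an unadjusted p under 0.05. Of 9 pigment cell genes, 0 were called (6 at an unadjusted p under 0.05). Of 10 heat shock genes, Hspb1 was called lower (-0.38), and the list's medians were 0.42, 0.41 and 0.74 in immunized BALB/cByJ replicate 3 and immunized BALB/cJ replicates 2 and 3, against -0.28 to 0.12 in the other arrays.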
